A study of Mus musculus with 4 samples.

Results

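The genes described here are 9 secreted factors, or their cell surface receptor, that belong to the senescence-associated secretory phenotype: Il6, Il1b, Tnf, Plau, Plaur, Igfbp3, Igfbp5, Igfbp7 and Gdf15. They were chosen by name as known products of senescent cells, with earlier results of these data known, and are 9 of 54532 genes listed in the files, all of them found there. RNA was sequenced from brain tissue labelled extra-tumoral, taken from C57BL/6 mice on day 21 after 50000 cells of the mouse glioma line GL261 had been placed in the brain, and from naive mice that received none. The design crossed age (young, old) with tumor (naive, tumor-bearing), giving 4 groups of 1 library each, and the treatment label is None throughout. Young mice were 8 to 12 weeks old, and the range stated for old mice is 8 to 90 weeks, so the old group is used as labelled. All 4 libraries carry the GL261 cell line tag, the naive ones included. How many mice stand behind a library is not given in the sources used here.

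Senescent cells stop dividing but remain active, and they release cytokines, growth factor binding proteins and proteases that act on neighbouring cells and on the matrix. IL-6, IL-1 beta and TNF are inflammatory cytokines made mainly by immune and glial cells in brain, under the control of the transcription factor NF-kB. Urokinase (Plau) and its receptor (Plaur) activate plasmin at the cell surface, the IGF-binding proteins hold insulin-like growth factors in the extracellular space, and GDF15 is a stress-induced hormone sensed in the hindbrain. None of these genes is restricted to senescent cells.

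Values are FPKM, that is fragments per kilobase of gene scaled to each library's depth by the authors, and the whole reads behind each value were recovered from the files. The 4 libraries held between 19572251 and 23267926 recovered fragments in genes. With 1 library per group no test between groups was possible and no difference has a replicate check. Each fold is a ratio of FPKM followed by its exact 95% interval from the reads, which covers counting error only. Markers of neurons, astrocytes and oligodendrocytes were all above 0 in every library. The old tumor-bearing library stood apart from the other 3. Summed FPKM of 7 cell cycle markers was 143 there against 0.538 to 6.70 elsewhere, that of 8 macrophage and monocyte markers 351 against 14.0 to 40.9, that of 8 T and NK cell markers 38.8 against 0.501 to 4.50, and that of 8 neuronal markers 285 against 964 to 1404. The old naive library, the base of every old tumor ratio, stood apart in 7 choroid plexus markers, which summed to 7.29 FPKM there against 399 to 461 in the other 3. Every comparison with old tumor-bearing tissue rests on 1 library, so the spread of each gene over the other 3 libraries is given as well. In such bulk tissue, fewer cells of a type and less RNA per cell cannot be told apart.

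The 9 genes covered a wide range of levels. In every library Igfbp5, Igfbp7 and Igfbp3 were the 3 highest, between 3.29 and 43.4 FPKM, and Il6 was the lowest or next to lowest, at or below 0.319 FPKM. In young and old naive tissue and in young tumor-bearing tissue only Plau joined the IGF-binding proteins above 1 FPKM. In old tumor-bearing tissue 7 of 9 exceeded 1 FPKM, all but Tnf and Il6. The plot of levels by library shows that 8 of the 9 genes had their highest value in the old tumor-bearing library and that Igfbp5 had its lowest value there.

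**Figure D1:**
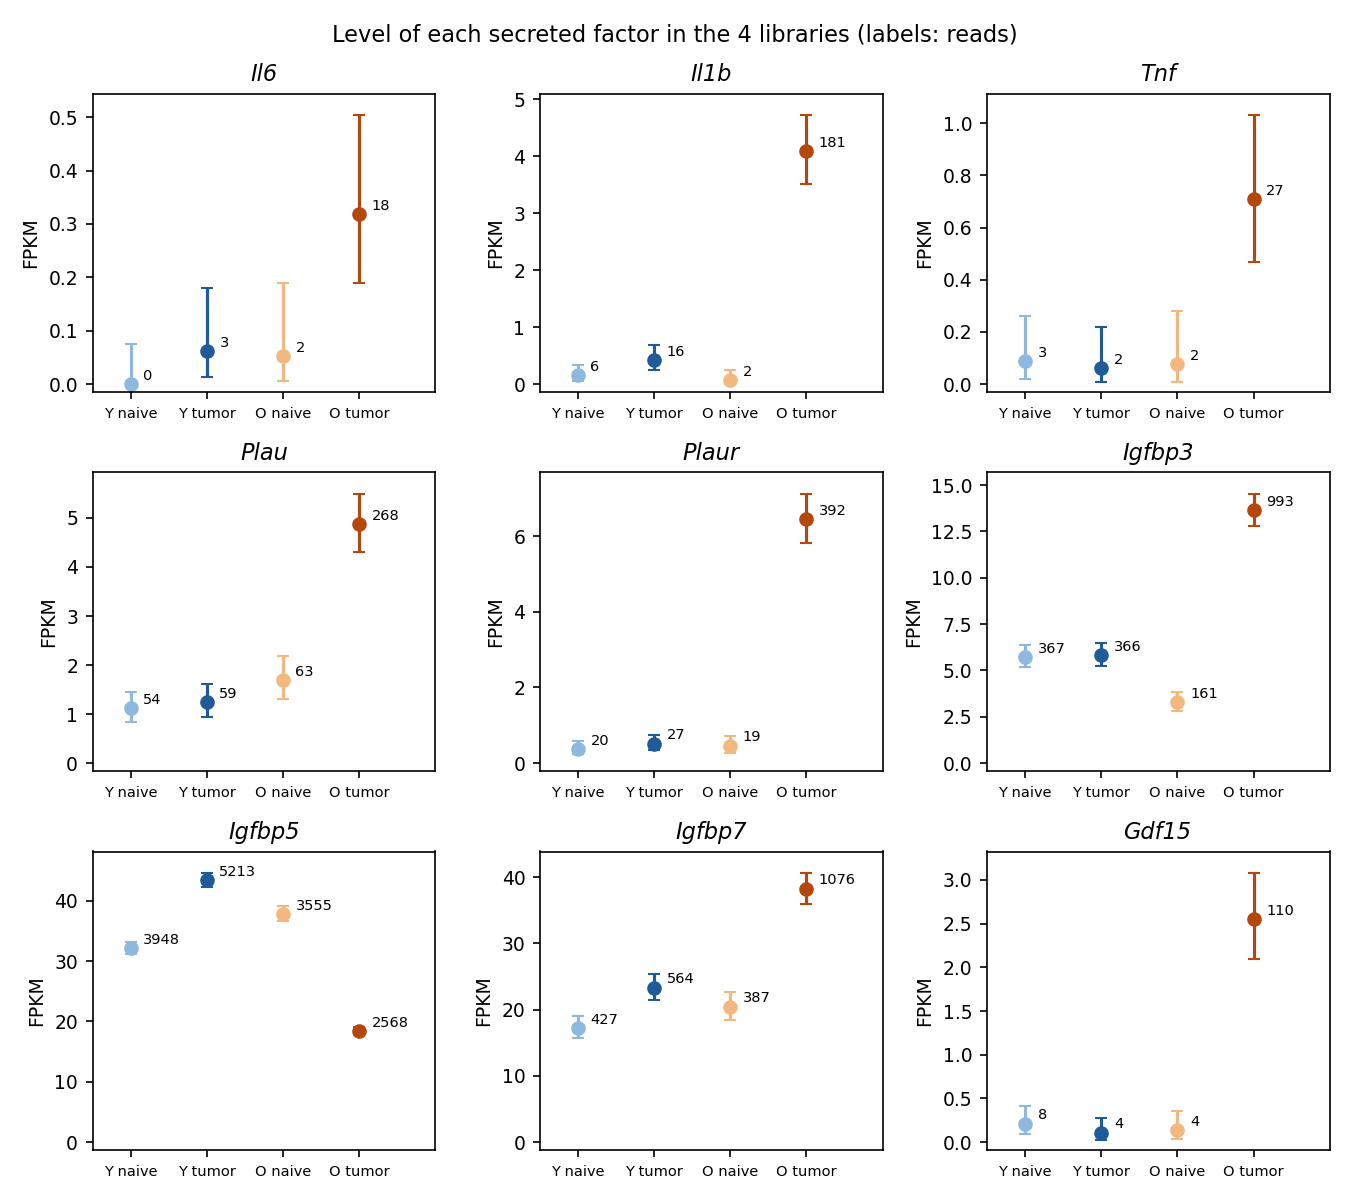
FPKM (linear axis, separate for each gene) of the 9 secreted factors in young (Y) and old (O) naive and tumor-bearing tissue. Points are single libraries, bars are exact 95% Poisson intervals of the reads (counting error only), and the number at each point is its reads. The old tumor-bearing point lies above the other 3 in every panel but that of Igfbp5, where it lies below them at 18.4 FPKM.

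The first question was how tissue from tumor-bearing mice differed from naive tissue at each age. In young mice 4 members reached 1 FPKM in either library and entered the count. Of these, 0 lay 2-fold or more above naive and 0 below (median log2 ratio 0.29), where 5.05% of all 15500 genes tested lay above and 1.85% below (median -0.01). In old mice 7 members entered, of which 5 lay 2-fold or more above naive and 1 below (median 2.02), where 20.6% of 16488 genes were higher and 31.4% lower (median -0.31). Log2 ratios are of FPKM + 0.1 and understate the difference of low genes. A gene that is nearly absent in naive tissue enters only through its level in tumor-bearing tissue, so these counts do not describe all 9 genes. With median-of-ratios scaling, scaling by fragments in genes and equal FPKM totals, the split of all genes in old mice turned from 3395 higher and 5171 lower to 4636 and 3850, 5366 and 3217, and 4725 and 3605, and the median of all genes moved up by 0.42, 0.64 and 0.48. Under each of the 3, Igfbp7 joined the higher members and Igfbp5 left the lower ones.

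**Figure D2:**
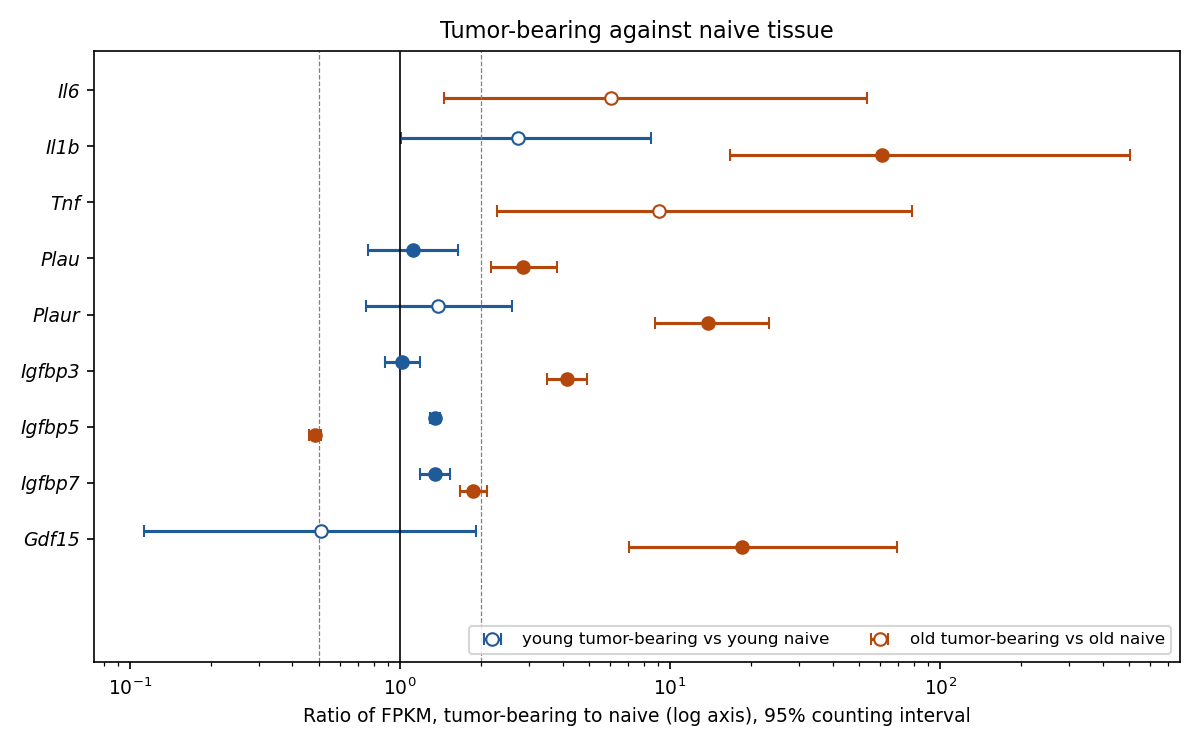
Ratio of FPKM in tumor-bearing to naive tissue (log axis) for each gene, with the exact 95% interval of its reads. Blue is young, orange is old, and open circles are genes below 1 FPKM in both libraries of the comparison. Dashed lines mark a 2-fold difference either way. Young Il6 (0 and 3 reads) and young Tnf (3 and 2 reads) have no ratio and are not drawn. All old ratios except that of Igfbp5 lie to the right of 1.

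The cytokines were the scarcest members. Il1b (ENSMUSG00000027398, mm10 chromosome 2, 129364570 to 129371139) encodes the precursor of IL-1 beta, which inflammasome-activated caspase-1 cleaves to its active form. It was at 0.154 FPKM (6 reads) in young naive, 0.420 (16 reads) in young tumor-bearing, 0.0670 (2 reads) in old naive and 4.08 (181 reads) in old tumor-bearing tissue. Thus the tumor-bearing library was the higher one at both ages, by far more in old mice. The fold was 2.73 (1.01 to 8.51) in young and 60.9 (16.6 to 507) in old mice. Over the 3 other libraries Il1b varied 6.26-fold, and the old tumor-bearing value was 9.73 times the highest of them. An antisense gene, Il1bos, shares 25 of the 1907 exonic bases of Il1b and was at or below 0.129 FPKM.

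Tnf (ENSMUSG00000024401, mm10 chromosome 17, 35199381 to 35202007), which encodes the trimeric cytokine TNF, had 3 and 2 reads in young naive and young tumor-bearing tissue and 2 and 27 in the old pair, or 0.0895, 0.0610, 0.0780 and 0.708 FPKM. Old tumor-bearing tissue alone gave more than 3 reads. The old ratio was 9.08 (2.28 to 78.8). In young mice a difference was not detectable at this depth.

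Il6 (ENSMUSG00000025746, mm10 chromosome 5, 30013114 to 30019981), the cytokine most often measured as a sign of the secretory phenotype, had 0, 3, 2 and 18 reads in the same order, or 0, 0.0618, 0.0526 and 0.319 FPKM. In the young naive library 3 reads, the floor used here for a count of 0, are 0.0604 FPKM, and the exact 95% upper limit is 0.0743 FPKM. The Poisson intervals of the 3 lower libraries overlapped. The old ratio was 6.06 (1.45 to 53.8), at a level that only 34.4% of protein-coding genes were below. Tnf and Il6 did not reach 1 FPKM in any library.

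The Il6 promoter is shown because it was the single member whose window held the NF-kB motif searched (GGGA, any base, TTTCC, on both strands). That motif occurred in 0.356% of the 32851 RefSeq promoter windows of the same length (250 bases before the start, assembly GRCm38.p6). The Il6 window lies at chr5:30012864-30013113 on the plus strand. Capitals mark the NF-kB match at bases -44 to -35 from the start and a match to the AP-1 motif TGANTCA at -249 to -243, a motif found in 6.75% of windows. The 2 matches do not overlap. Windows were found for 8 of the 9 genes, Plau being the exception, and those of Il1b and Tnf held none of the 3 motifs searched, the third being the CHOP-ATF4 element TGATGNAA (3.45% of windows).
Il6: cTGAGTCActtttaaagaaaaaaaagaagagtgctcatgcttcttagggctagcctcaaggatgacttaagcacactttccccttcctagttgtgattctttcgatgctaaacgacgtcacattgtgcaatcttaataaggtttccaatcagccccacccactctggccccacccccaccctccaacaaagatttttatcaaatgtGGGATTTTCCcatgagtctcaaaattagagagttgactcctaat

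Partners of the cytokines were described from lists of related genes, as were those of the other members below. The share over all genes tested was 5.05% higher and 1.85% lower in young mice, and 20.6% and 31.4% in old mice. Of 15 genes of the IL-6 family and its signaling, 10 were measured in young mice, with 2 above naive by 2-fold and 0 below. In old mice 14 were measured, with 7 higher and 1 lower (median 0.77). The chains of the IL-6 receptor were within 2-fold at both ages. Il6ra, the ligand-binding chain, was at 0.928, 1.15, 1.24 and 1.68 FPKM, and Il6st, which encodes the shared signaling chain gp130, at 13.1, 12.0, 10.4 and 11.6 FPKM. Socs3, a feedback inhibitor induced by STAT3, was at 1.17, 3.41, 2.23 and 29.7 FPKM, 2.92-fold higher (2.21 to 3.90) in young and 13.3-fold (10.9 to 16.4) in old tumor-bearing tissue. Receptor chains of related cytokines, named after their values were seen, lay farther apart in old mice, with Osmr 7.23-fold higher (5.96 to 8.84) and Cntfr 4.82-fold lower (4.35 to 5.34). Osm, a cytokine that also signals through gp130, had 118 reads in old tumor-bearing tissue and 3 to 5 in each other library.

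Of 13 genes of the IL-1 family and its processing, 6 were measured in young mice with 1 higher and 0 lower, and 10 in old mice with 7 higher and 0 lower (median 1.42). Il1rn, which encodes the natural antagonist of the IL-1 receptor, had 0 reads in both naive libraries, 16 in young tumor-bearing and 215 in old tumor-bearing tissue, at least 5.45-fold and at least 48.2-fold higher against a floor of 3 reads per library. The exact intervals of these ratios begin at 3.94 and 38.9. Il1a, the second ligand, was at 0.273, 0.709, 0.615 and 1.50 FPKM (11, 28, 19 and 69 reads). Its FPKM exceeded that of Il1b in the first 3 libraries, 1.77-fold, 1.69-fold and 9.18-fold, and was 0.368 times Il1b in old tumor-bearing tissue. These ratios have no interval and rest on 6, 16, 2 and 181 reads of Il1b. The signaling receptor Il1r1 was within 2-fold at both ages (0.974 to 1.95 FPKM over the 4 libraries). Casp1 was 2.19-fold higher (1.39 to 3.52) in young and 11.6-fold (8.73 to 15.8) in old tumor-bearing tissue.

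The TNF receptor and NF-kB list had 1 of 9 measured genes 2-fold or more above naive in young mice and 9 of 12 in old mice, with 0 below at either age (medians 0.24 and 1.46). Both receptor genes had higher FPKM than the ligand in every library. Tnfrsf1a was at 5.36, 8.55, 5.03 and 36.8 FPKM, and Tnfrsf1b, found mostly on immune cells, at 0.833, 2.31, 1.62 and 19.4 FPKM. Tnfrsf1b was 2.77-fold higher (2.07 to 3.74) in young and 11.9-fold (9.73 to 14.8) in old tumor-bearing tissue. Adam17, the protease that releases TNF from the membrane, was 1.12-fold higher (0.997 to 1.26) in young and 5.27-fold (4.67 to 5.97) in old mice.

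Beside these cytokine values, the macrophage and monocyte markers summed to 14.0 and 40.9 FPKM in young naive and young tumor-bearing tissue and to 23.4 and 351 FPKM in old. Of the 8 markers, 1 of 3 measured was higher in young mice and 6 of 7 in old mice, and Ly6c2 was at 0 reads in young naive tissue only. Cd163, below 1 FPKM in both old libraries and so not measured, was 9.15-fold lower (5.06 to 17.9) in old tumor-bearing tissue. Lyz2 (244 FPKM) and Fn1 (86.3 FPKM) made up most of the old tumor-bearing sum. The 8 microglia markers summed to 100, 122, 127 and 137 FPKM, with none at 0. Neutrophil markers summed to 5.13, 4.94, 11.4 and 10.9 FPKM, and Ly6g, which defines that cell, had 2 reads in young naive tissue and 0 in the other 3 libraries. Of the neutrophil list, 3 markers were measured in old mice, with 1 higher and 1 lower (median log2 ratio -0.77). Csf3r was 2.49-fold higher (2.08 to 2.98) in old tumor-bearing tissue. S100a9 was at 5.63 FPKM in old naive and 1.81 in old tumor-bearing tissue, and S100a8 at 2.39 and 1.36. The part of these cell types in the cytokine values was not tested.

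Both genes of the urokinase system were higher in old tumor-bearing tissue, the receptor more than the enzyme. Plau (ENSMUSG00000021822, mm10 chromosome 14, 20836660 to 20843385), the secreted protease that converts plasminogen to plasmin, was at 1.12 FPKM (54 reads) in young naive, 1.25 (59 reads) in young tumor-bearing, 1.70 (63 reads) in old naive and 4.87 (268 reads) in old tumor-bearing tissue. The young libraries overlapped within counting error (1.12-fold, 0.759 to 1.65), and the old ratio was 2.86 (2.17 to 3.83). Over the 3 lower libraries Plau varied 1.53-fold.

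Plaur (ENSMUSG00000046223, mm10 chromosome 7, 24462484 to 24475968) encodes the membrane-anchored urokinase receptor, which can also be shed, and is used as a surface marker of senescent cells. It was at 0.374 (20 reads), 0.516 (27 reads), 0.464 (19 reads) and 6.44 FPKM (392 reads) in the same order. Poisson intervals of the first 3 libraries overlapped, and their values spanned 1.38-fold. The old ratio was 13.9 (8.77 to 23.3). Receptor per enzyme, as a ratio of FPKM, was 0.335, 0.414 and 0.273 in those libraries and 1.32 in old tumor-bearing tissue.

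The Plaur window is shown because it was the other member window with a match, here to the AP-1 motif at bases -69 to -63 (capitals). It lies at chr7:24462233-24462482 on the plus strand.
Plaur: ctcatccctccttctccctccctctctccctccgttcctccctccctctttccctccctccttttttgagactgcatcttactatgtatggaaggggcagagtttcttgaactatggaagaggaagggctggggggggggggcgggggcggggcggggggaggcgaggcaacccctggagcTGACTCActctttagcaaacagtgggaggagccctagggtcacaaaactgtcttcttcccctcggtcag

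Of 12 further genes of the plasminogen system, 8 were measured in young mice and 0 were 2-fold apart. In old mice 9 were measured, with 4 higher and 3 lower (median 0.31), beside 20.6% and 31.4% of all genes tested. Plat, tissue plasminogen activator, the other activating protease and the more abundant one, was at 6.32, 7.02, 5.46 and 6.79 FPKM. It was thus 5.67 times Plau in young naive and 1.40 times Plau in old tumor-bearing tissue. Serpine2, a protease inhibitor made by glia, was 1.24-fold lower (1.19 to 1.30) in young and 2.49-fold lower (2.34 to 2.64) in old tumor-bearing tissue. Anxa2, a surface receptor for plasminogen, was 13.3-fold higher (11.6 to 15.4) in old mice, and Lrp1, which clears protease and inhibitor complexes, 3.91-fold lower (3.80 to 4.02). Plg, plasminogen itself, had 0 to 4 reads in each library.

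The IGF-binding proteins were the abundant members, and they did not move as one. Igfbp3 (ENSMUSG00000020427, mm10 chromosome 11, 7206086 to 7213923), the main carrier of insulin-like growth factors in plasma, was at 5.74 FPKM (367 reads) in young naive, 5.85 (366 reads) in young tumor-bearing, 3.29 (161 reads) in old naive and 13.6 (993 reads) in old tumor-bearing tissue. The young pair overlapped within counting error (1.02-fold, 0.880 to 1.18), whereas the old ratio was 4.15 (3.51 to 4.93). Part of that distance lay on the naive side, since old naive tissue was the lowest of the 4 libraries. Against the highest of the other libraries the old tumor-bearing value was 2.33 times as large.

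Igfbp7 (ENSMUSG00000036256, mm10 chromosome 5, 77349240 to 77408041), a vascular matrix protein with weak affinity for insulin-like growth factors, was at 17.3 (427 reads), 23.3 (564 reads), 20.5 (387 reads) and 38.3 FPKM (1076 reads). It was 1.35-fold higher (1.19 to 1.54) in young and 1.87-fold (1.66 to 2.11) in old tumor-bearing tissue. The old log2 ratio of 0.90 became 1.28, 1.47 and 1.33 with median-of-ratios scaling, scaling by fragments in genes and equal FPKM totals. Its exons share 85 of 1209 bases with Polr2b on the opposite strand (15.9, 16.5, 15.6 and 29.3 FPKM), and the labels describe both directional and non-directional library preparation without saying which was used. Reads in the shared bases may therefore belong to either gene.

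Igfbp5 (ENSMUSG00000026185, mm10 chromosome 1, 72857932 to 72874884), a binding protein that attaches to the extracellular matrix, was at 32.2 (3948 reads), 43.4 (5213 reads), 37.8 (3555 reads) and 18.4 FPKM (2568 reads). The young tumor-bearing library was the highest and the old tumor-bearing the lowest. It was 1.35-fold higher (1.30 to 1.41) in young and 2.06-fold lower (1.96 to 2.17) in old tumor-bearing tissue. The old log2 ratio of -1.04 was -0.66, -0.46 and -0.61 under the 3 other scalings, so its direction held but not the 2-fold difference. Of all genes tested in old mice, 30.3% had a lower log2 ratio than Igfbp5. Igfbp5 per Igfbp7, a ratio within a library that scaling does not touch, was 1.86, 1.86 and 1.85 in the first 3 libraries and 0.480 in old tumor-bearing tissue.

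The windows of Igfbp5 and Igfbp7 are shown because the ratio between these genes was nearly constant in 3 libraries and lower in the fourth. Neither holds any of the 3 motifs, so no base is in capitals. GC content was 58.8% in the Igfbp5 window (chr1:72874866-72875115, minus strand, 10 CG pairs) and 74.0% in that of Igfbp7 (chr5:77408046-77408295, minus strand, 26 CG pairs). Over all windows the median was 52.4% with 6 CG pairs. That of Igfbp3, at 73.2% and 32 CG pairs, was also rich in GC, and Il6 (42.8%) and Il1b (44.4%) were the poorest members.
Igfbp5: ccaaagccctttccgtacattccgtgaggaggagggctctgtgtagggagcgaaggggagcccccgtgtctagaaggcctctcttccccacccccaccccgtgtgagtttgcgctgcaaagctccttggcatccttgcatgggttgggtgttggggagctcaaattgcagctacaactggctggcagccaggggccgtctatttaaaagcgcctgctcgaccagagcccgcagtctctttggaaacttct
Igfbp7: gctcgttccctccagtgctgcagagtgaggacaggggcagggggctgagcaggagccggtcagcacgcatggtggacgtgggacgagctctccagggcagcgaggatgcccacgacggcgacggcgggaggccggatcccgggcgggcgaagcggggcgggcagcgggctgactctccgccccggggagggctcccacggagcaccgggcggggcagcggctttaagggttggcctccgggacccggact

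The wider family showed the same spread of directions. Igfbp1 to Igfbp7 summed to 126 and 136 FPKM in young naive and tumor-bearing tissue and to 165 and 121 FPKM in the old pair. Igfbp7 made up 13.7%, 17.1%, 12.4% and 31.5% of the sum, Igfbp3 4.55%, 4.29%, 1.99% and 11.2%, and Igfbp5 25.5%, 31.9%, 22.9% and 15.1%. The largest change of share belonged to Igfbp6, which is not a member and went from 31.9% of the sum in old naive to 3.31% in old tumor-bearing tissue (52.6 and 4.02 FPKM, 13.1-fold lower, 10.7 to 16.2). Igfbp4 was 2.20-fold lower (2.05 to 2.36) in old tumor-bearing tissue and Igfbp2 1.53-fold higher (1.39 to 1.68). Over the IGF axis list, 0 of 7 measured genes were 2-fold apart in young mice. In old mice 0 of 6 were higher and 2 lower (median -0.77), beside 20.6% and 31.4% of all genes tested. The ligands were low, Igf1 at 0.695 to 1.19 FPKM and Igf2 at 0.120 to 0.288 FPKM, and Igf1r, the receptor they activate, was at 3.81 to 5.95 FPKM.

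**Figure D3:**
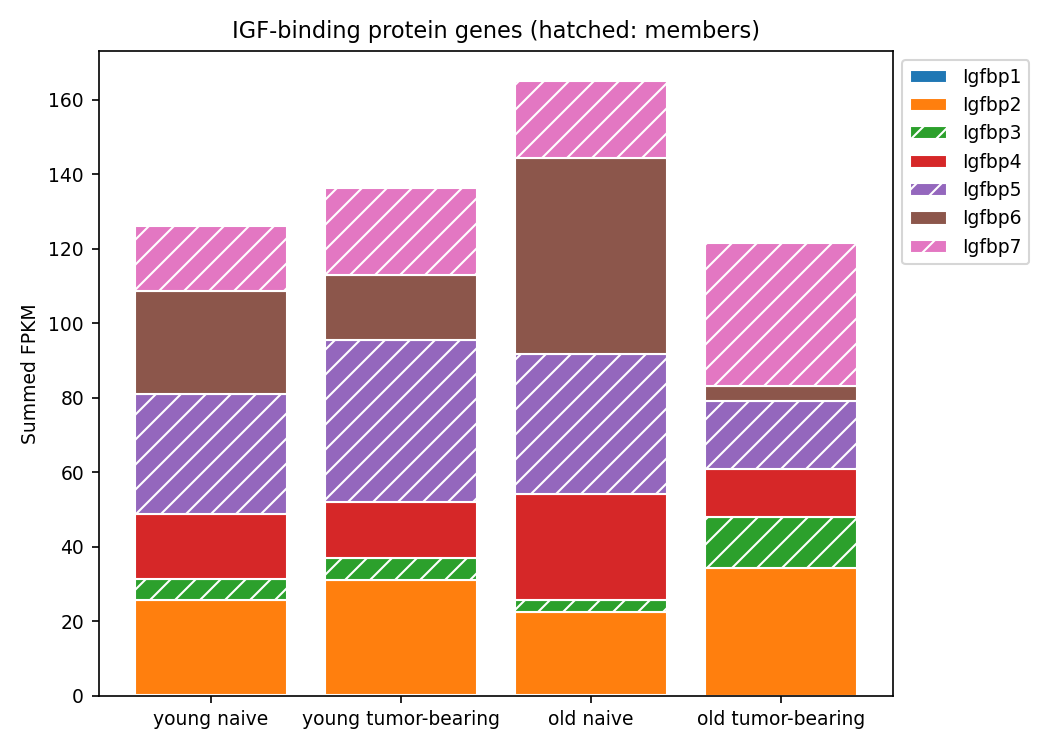
Stacked FPKM of the 7 IGF-binding protein genes in each library, with the 3 members hatched. The total lies between 121 and 165 FPKM, and the old tumor-bearing bar holds more Igfbp7 and Igfbp3 and less Igfbp5 and Igfbp6 than the old naive bar. Igfbp1 (at or below 0.164 FPKM) is too thin to see.

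Vascular and fibroblast markers, whose cells make IGF-binding proteins, did not share one direction. In young tumor-bearing against naive tissue, 0 of 8 endothelial and 0 of 7 measured pericyte and smooth muscle markers were 2-fold apart, and 2 of 7 fibroblast markers were higher. In old mice, 1 of 8 endothelial markers was higher and 3 lower. Among pericyte and smooth muscle markers, 0 of 7 were higher and 5 lower. Among fibroblast markers, 2 of 7 were higher and 2 lower, beside 20.6% and 31.4% of all genes tested. Summed FPKM of the endothelial list was 93.4, 81.9, 92.6 and 105. Without Ly6c1, a marker that monocytes also express and that was left out after its values were seen, it was 66.9, 59.3, 71.9 and 42.3. The sum of the pericyte and smooth muscle list was 48.2, 48.1, 49.8 and 20.4, with no marker at 0. The 6 oligodendrocyte markers summed to 1163, 1088, 831 and 549 FPKM. Of the choroid plexus markers, 6 of 6 measured were higher in old tumor-bearing than in old naive tissue. The part of these cells in the values of Igfbp3, Igfbp5 and Igfbp7 was not tested.

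Gdf15 (ENSMUSG00000038508, mm10 chromosome 8, 70629393 to 70632456) encodes a distant member of the TGF-beta family that is induced by mitochondrial and endoplasmic reticulum stress and by p53. It had 8 reads (0.211 FPKM) in young naive, 4 (0.108) in young tumor-bearing, 4 (0.138) in old naive and 110 (2.55) in old tumor-bearing tissue. Poisson intervals of the first 3 libraries overlapped, and the young ratio was 0.511 (0.113 to 1.91). The old ratio was 18.5 (7.03 to 69.1). Neither of its 2 promoter windows held a motif searched, the CHOP-ATF4 element included.

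Gfral, the only known receptor of GDF15, normally confined to the hindbrain, had 0 to 2 reads in each library. On the list of that receptor and stress regulators, 2 of 8 measured genes lay 2-fold or more above naive and 0 below in young mice, and 3 of 7 lay above and 1 below in old mice (median 0.79). Trib3, a pseudokinase induced by ATF4 and CHOP, was at 0.760, 2.26, 0.932 and 44.4 FPKM, 2.97-fold higher (1.98 to 4.56) in young and 47.7-fold (33.5 to 70.3) in old tumor-bearing tissue. Atf3, a stress-induced transcription factor, was at 0.363, 1.16, 0.237 and 4.93 FPKM. Thus Trib3 and Atf3 were above naive at both ages, while Gdf15 was so in old mice. Atf4, which encodes the central factor of the integrated stress response, was 1.22-fold lower (1.15 to 1.29) in young and 1.73-fold higher (1.63 to 1.82) in old tumor-bearing tissue.

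**Figure D4:**
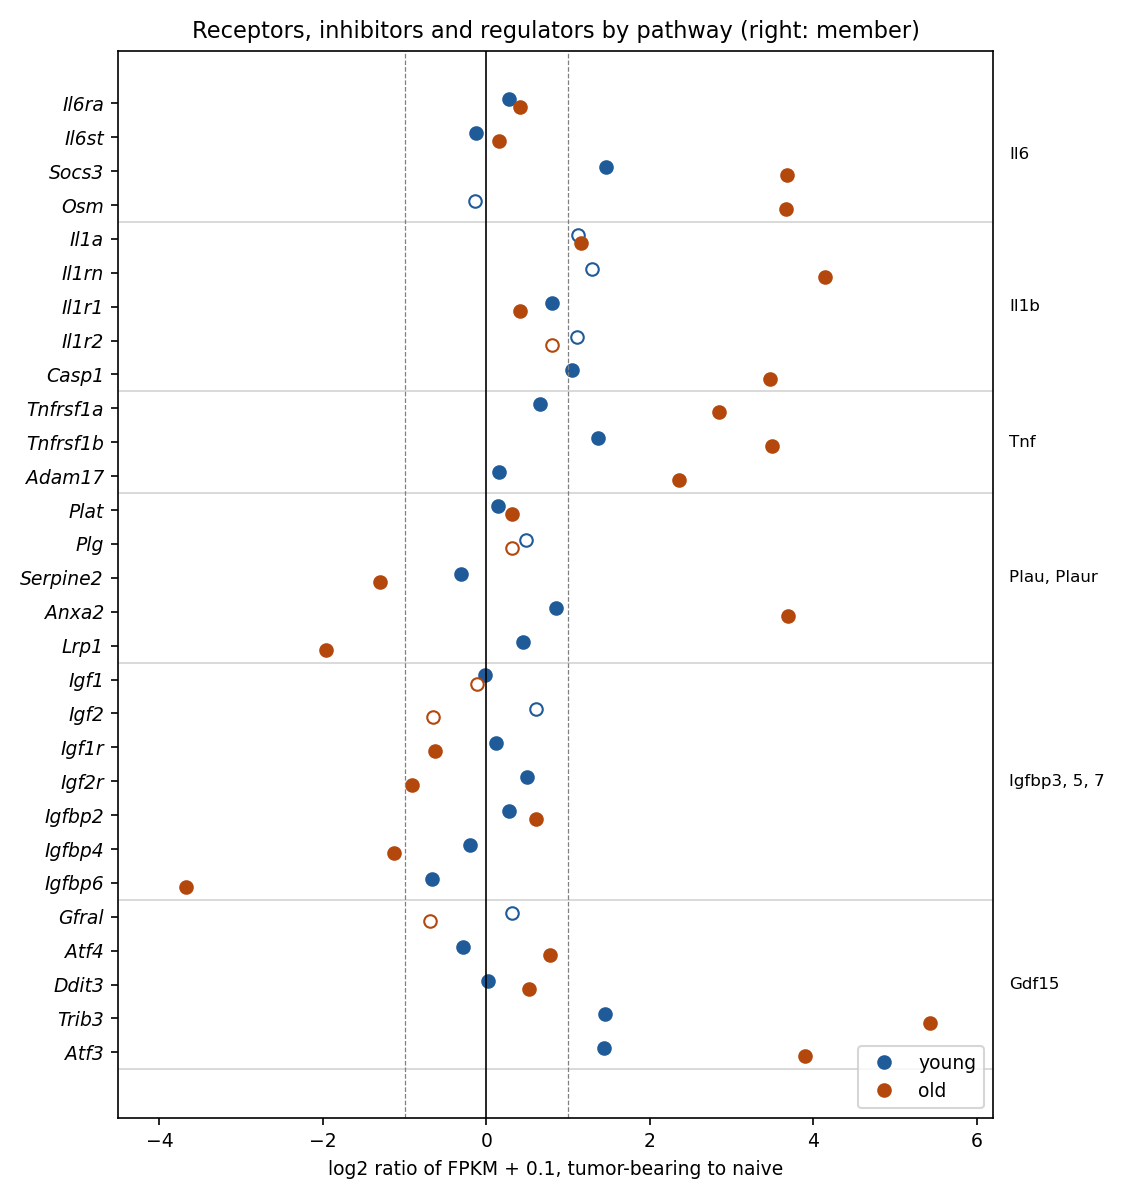
Log2 ratio of FPKM + 0.1, tumor-bearing to naive, for receptors, inhibitors and regulators grouped by the member they relate to (right margin). Blue is young and orange is old, open circles are genes below 1 FPKM in both libraries, and dashed lines mark 2-fold. Trib3 lies farthest to the right in old mice at 5.43 and Igfbp6 farthest to the left at -3.68.

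The age groups were then set against each other. Between the 2 naive libraries, 4 members were measured, of which 0 differed 2-fold in either direction (median log2 ratio 0.24, old to young), where 6.71% of 15419 genes were higher and 4.93% lower (median 0.06). The split of 1035 higher and 760 lower genes became 710 and 860 with scaling to gene fragments and 617 and 1020 with equal FPKM totals. Igfbp3 was 1.74-fold lower (1.45 to 2.11) in old naive tissue, and Plau 1.53-fold higher (1.04 to 2.24). Igfbp5 and Igfbp7 were each 1.18-fold higher (1.12 to 1.23 and 1.03 to 1.36), a difference of 0.23 and 0.24 in log2 that became 0.01 and 0.02 with equal FPKM totals. The other 5 genes had at most 20 reads in either naive library and did not differ beyond counting error. Choroid plexus markers summed to 417 FPKM in young naive and 7.29 in old naive tissue, against 399 and 461 in young and old tumor-bearing tissue, and their part in the values was not tested.

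Between the tumor-bearing libraries, 7 members were measured, with 5 being 2-fold or more above young and 1 below (median 1.88). Over all 16562 genes tested, 19.0% were higher and 29.8% lower (median -0.28). Il1b, Plaur and Gdf15 lay below 1 FPKM in young tumor-bearing tissue (0.420, 0.516 and 0.108). They entered only through their level in old tumor-bearing tissue, so they could not count as lower. The split of all genes, 3155 higher and 4941 lower, became 4513 and 3381 with median-of-ratios scaling, 4528 and 3509 with scaling to gene fragments and 3684 and 4431 with equal FPKM totals. Igfbp5 kept its direction under each of the 3, at -0.84, -0.86 and -1.08 in log2. With median-of-ratios scaling and scaling to gene fragments it was no longer 2-fold lower, and Igfbp7 joined the higher members, at 1.105 and 1.09. Gdf15 was 23.7-fold higher (8.98 to 88.3), Plaur 12.5-fold (8.45 to 19.2), Il1b 9.73-fold (5.83 to 17.4), Plau 3.91-fold (2.94 to 5.27) and Igfbp3 2.33-fold (2.07 to 2.64). Igfbp7 was 1.64-fold higher (1.48 to 1.82), and Igfbp5 was 2.36-fold lower (2.25 to 2.48). These comparisons share libraries with the tumor comparisons above and are not separate evidence.

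As a single value for age and tumor together, each gene's log2 tumor ratio in young mice was taken from that in old mice. The result was 4.06 for Gdf15, 3.61 for Il1b, 3.16 for Plaur, 2.42 for Tnf, 1.99 for Igfbp3, 1.32 for Plau, 0.76 for Il6, 0.47 for Igfbp7 and -1.47 for Igfbp5. The value was above 0 for 8 of the 9 genes, and for 41.0% of the 17441 genes of at least 1 FPKM in a library. The 8 include Tnf and Il6, which did not reach 1 FPKM, so the 2 shares cover unlike sets. The 41.0% holds for the deposited scaling only. Under the 3 other scalings the median tumor ratio of all genes in old mice moved up by 0.42, 0.64 and 0.48, and this share was not recomputed. With 0.01 in place of 0.1 FPKM added, the value was above 0 for 7 of the 9. That of Il6 turned to -0.45, which rests on 0 reads in young naive tissue. This difference was not tested, as each group is 1 library.

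**Figure D5:**
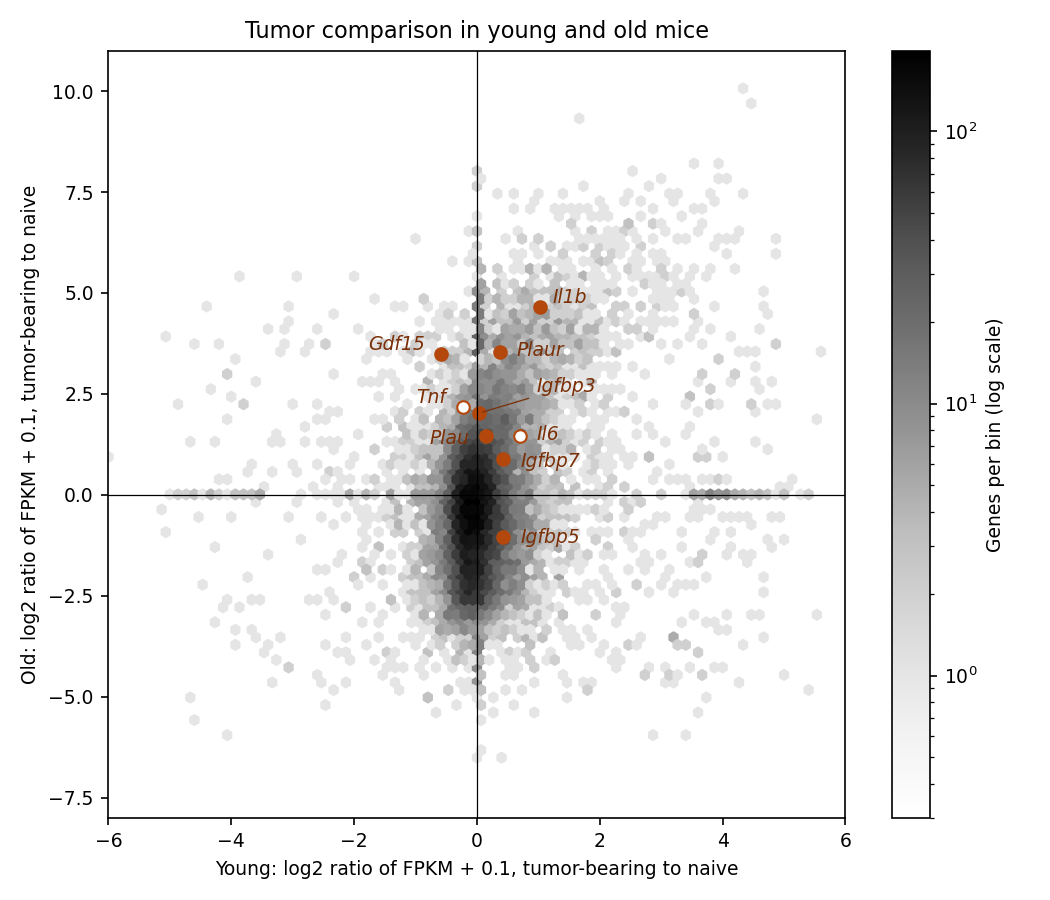
Log2 ratio of FPKM + 0.1, tumor-bearing to naive, in young (x axis) against old mice (y axis). Grey hexagons count genes of at least 1 FPKM in either library of at least 1 of the comparisons (17441 genes, 8 of them outside the axes), and orange points are the 9 secreted factors, open where the gene is below 1 FPKM in all 4 libraries. The members lie from -0.58 (Gdf15) to 1.03 (Il1b) in x and from -1.04 (Igfbp5) to 4.65 (Il1b) in y.

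Other secreted factors of the phenotype gave a frame for the 9 genes. Of 41 further factors, 22 were measured in young mice with 5 higher and 1 lower (median 0.40), and 29 in old mice with 19 higher and 5 lower (median 2.48). Cxcl10, an interferon-induced chemokine, had 4, 166, 4 and 12394 reads, and Ccl5, a chemokine for T cells, 9, 75, 5 and 816 reads, in the order used above. Of 8 genes of the senescent state and the cell cycle, 7 were measured in young mice with 3 higher and 0 lower, and 8 in old mice with 6 higher and 0 lower. Cdkn2a, whose products include the cell cycle inhibitor p16, was at 0.167, 2.18, 0.491 and 53.5 FPKM. These are values of the whole gene and do not separate its products. Cdkn1a, which encodes p21, was at 8.34, 6.54, 6.19 and 32.9 FPKM. The same list holds genes of dividing cells. Top2a, which encodes a topoisomerase of dividing cells, was at 0.185, 2.11, 0.114 and 49.9 FPKM, and Mki67, a proliferation marker, was at 0.180, 1.19, 0.133 and 18.8 FPKM. Lmnb1, a nuclear lamina gene that is low in senescent cells, was 17.4-fold higher (14.8 to 20.5) in old tumor-bearing tissue.

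The genes most like each member were taken from 13911 protein-coding genes of at least 1 FPKM in a library, as the smallest distance between log2 values over the 4 libraries, each centred on its mean. For Igfbp5 they were Opalin, Gpr62 and Fgd6 (distances 0.07, 0.08 and 0.08). For Igfbp7 they were Krtcap3, Ino80c and Plxna3 (0.05, 0.06 and 0.06), for Igfbp3 Lin9, Cep152 and Lyn (0.05, 0.09 and 0.12), and for Plau Lig1, Haus1 and Usb1 (0.08, 0.10 and 0.10). The closest gene to Plaur was Gdnf (0.17), to Il1b Gm19684 (0.06) and to Gdf15 Aunip (0.29), with Osm next (0.35). For Tnf and Il6, which rest on few reads, the closest were Ppat (0.12) and Syne4 (0.09). With 4 libraries and so many genes, close matches are common and describe these libraries only.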

How the data were processed

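RNA of 4 brain tissue libraries was measured by poly-A selected paired-end sequencing. Per the submitters' processing notes, the tool was HISAT2 and the build mm10. The deposited values are FPKM, made by the authors with a counting program, annotation and filters not given in the sources used here. Symbols, coordinates and exon lengths came from GENCODE M21, which named 54495 of 54532 genes. The symbol Ddit3 belongs to 2 IDs, and the one with reads was used.

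FPKM times exon length came in whole steps of 1 read, which gave the divisor (15646444 to 23253749) and the reads. Of 32867 genes above 0, 31928 (97.1%) were whole in all libraries within 0.03 reads or 2e-05 of the value. A gene entered a comparison at 1 FPKM in either library, log2 ratios were of FPKM + 0.1, and genes at least 2-fold apart were counted. Intervals are exact conditional binomial ones. No molecular identifiers are described, so PCR copies may count as reads and intervals cover counting error only. The divisor per fragment ran from 0.797 to 1.19. Scripts were tested on simulated data (Python 3.11.15, scipy 1.17.1).

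Members and lists were chosen with earlier results of these data known. Named partners were direct ligands, receptors, inhibitors and regulators, plus the 2 measured genes of each list farthest from 0 in each tumor comparison. Of these, 1 is not reported here. Promoters are RefSeq's, assembly GRCm38.p6. Protein sequences were not used here.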

Additional observations from a re-analysis of the deposited data

Results flagged for a closer look

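Igfbp5 and Gdf15 moved in opposite directions with the tumor at the 2 ages, and the difference was not tested because each group is 1 library. For Igfbp5 the log2 ratio of tumor-bearing to naive tissue was 0.43 in young and -1.04 in old mice, a difference of -1.47, and both ratios lay beyond counting error. For Gdf15 the log2 ratio was -0.58 in young and 3.48 in old mice, a difference of 4.06, and the young value, from 8 and 4 reads, lay within counting error.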

How the results depend on the processing

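The counts and medians over the 9 genes were recomputed under other settings, where 79 values stayed close to those reported and 17 moved. No paired analysis was possible because each group has 1 library, and for the same reason no replicate was left out in turn.

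For the old pair of libraries, tumor-bearing to naive, the median log2 ratio was 1.64 with 1 FPKM added before the log, 1.46 with a floor of 5 FPKM, 2.40 with median-of-ratios scaling, 2.59 with scaling to gene fragments and 2.45 with equal FPKM totals. There, members at least 2-fold higher numbered 2 of 4 with a floor of 5 FPKM, where 1945 of 10284 genes were higher. Members at least 2-fold lower numbered 0 under each of the 3 scalings, where 3850 of 16704, 3217 of 16660 and 3605 of 16439 genes were lower. In old against young tumor-bearing tissue the median was 1.39 with 1 FPKM added and 0.96 with the floor of 5 FPKM. Members higher numbered 2 of 4 with that floor, where 1875 of 10247 genes were higher. Members lower numbered 0 with median-of-ratios scaling (3381 of 16720 genes lower) and with scaling to gene fragments (3509 of 16958 genes lower). With no floor, 1 of 9 members (Il1b) was at least 2-fold higher in young tumor-bearing tissue, where 3407 of 29606 genes were higher. In old against young naive tissue equal FPKM totals gave 1 of 4 members lower (Igfbp3), where 1020 of 15104 genes were lower, and a median of 0.012. The floors change which genes enter, and the scalings shift all genes of a library alike. Of 45 values of single genes, 13 moved beyond counting error (for age differences, by over 0.5) with 1 FPKM added and 4 with 0.01 FPKM added. With median-of-ratios scaling 6 moved, with scaling to gene fragments 12 and with equal FPKM totals 7. With 0 reads set to 3 reads 1 moved, the age difference of Il6, from 0.76 to 1.44. A floor leaves the values of single genes as they are by construction. The young ratio of Il6, which has no interval, went from 0.69 to 2.84 with 0.01 FPKM added. Depth limits Il6, Tnf and Gdf15 most, with at most 8 reads in each of 3 libraries.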
